A study of Arabidopsis thaliana with 24 samples.

Results

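WRKY53 (AT4G23810), WRKY22 (AT4G01250), WRKY29 (AT4G23550) and WRKY6 (AT1G62300) encode WRKY transcription factors of Arabidopsis thaliana. They were picked out by gene identifier, as a family named with earlier results of these data known, and each had 1 probe among the 181 probes with a named gene, on a spotted array of 576 probes. No other named probe carried a WRKY symbol. WRKY29 and WRKY53 lie on chromosome 4 with 36 annotated genes between them (RefSeq, TAIR10.1). Levels were read on 24 arrays in 8 groups of 3. These were mpk11 seedlings with flg22 and with mock treatment and Col seedlings with flg22 and with mock treatment, each sampled after 3 h and after 30 min. Col is the wild-type accession, and mpk11 is a single T-DNA insertion line, SALK049352, in the same accession, with the insertion in MPK11, which codes for a MAP kinase that flg22 activates. Seedlings were 10 days old and spent their last 48 h before treatment in fresh liquid medium. The treatment was 1 µM flg22, or water as mock, and RNA was taken from leaves.

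WRKY proteins are plant transcription factors named after a short conserved run of amino acids in their DNA-binding domain, and they bind W-box elements in promoters, many of them in promoters of WRKY genes themselves. Bacterial flagellin is sensed through its conserved peptide flg22 by the receptor kinase FLS2 at the cell surface, and this activates MAP kinase cascades and a rapid change in transcription. WRKY22 and WRKY29 are known as targets downstream of such a cascade in flagellin signalling. WRKY53 is known as a regulator of leaf senescence that also acts in defence, and WRKY6 is linked to senescence, pathogen responses and phosphate status.

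All values are deposited signals on a log scale, taken as log2 although the base is not stated, so fold values hold only for that base. The array medians lay between 4.02 and 4.17 with flg22 and between 3.34 and 3.76 in mock, and the values were used as deposited. With 3 arrays a group, their number limits the precision. The labels do not say whether sets 1 to 3 are separate cultures, so the p-values describe only the spread between these arrays, which may be technical. MPK11 and the other 10 genes of a list for flagellin perception and its MAP kinase cascade were not among the named probes, nor were any of 7 green leaf and 5 root marker genes. The genotype and tissue labels were therefore not checked against transcripts. In leaf RNA, fewer cells of a type and less RNA per cell cannot be told apart. The probe sequences were not used here, so which transcripts of the WRKY family each probe can bind was not checked.

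All 4 WRKY genes were higher with flg22 than in mock, in both genotypes and at both times, but their courses were not all alike. WRKY53 and WRKY22 were high at 30 min and lower, though still raised, at 3 h. WRKY29 was raised strongly at 3 h and less at 30 min, by 0.94 in mpk11 and 0.78 in Col. WRKY6 was raised by 0.72 in mpk11 and 1.15 in Col at 30 min, and by 1.41 and 1.34 at 3 h. Its change of response between the times passed the limma test in neither genotype. For each of the 4 genes, all 12 flg22 arrays lay above all 12 mock arrays on the deposited scale, as they did for 12% of all probes. The closest arrays were 3.45 with flg22 and 3.19 in mock for WRKY29, and 3.99 and 3.66 for WRKY6. The array medians were higher with flg22 too. For WRKY29 the separation does not hold once arrays are centred on their medians. Its lowest flg22 array was 3.448, and no flg22 median was under 4.022. Its highest mock array was 3.193, a smaller distance below even the highest mock median, 3.763. For the other genes, whether this separation holds after rescaling was not tested.

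**Figure D1:**
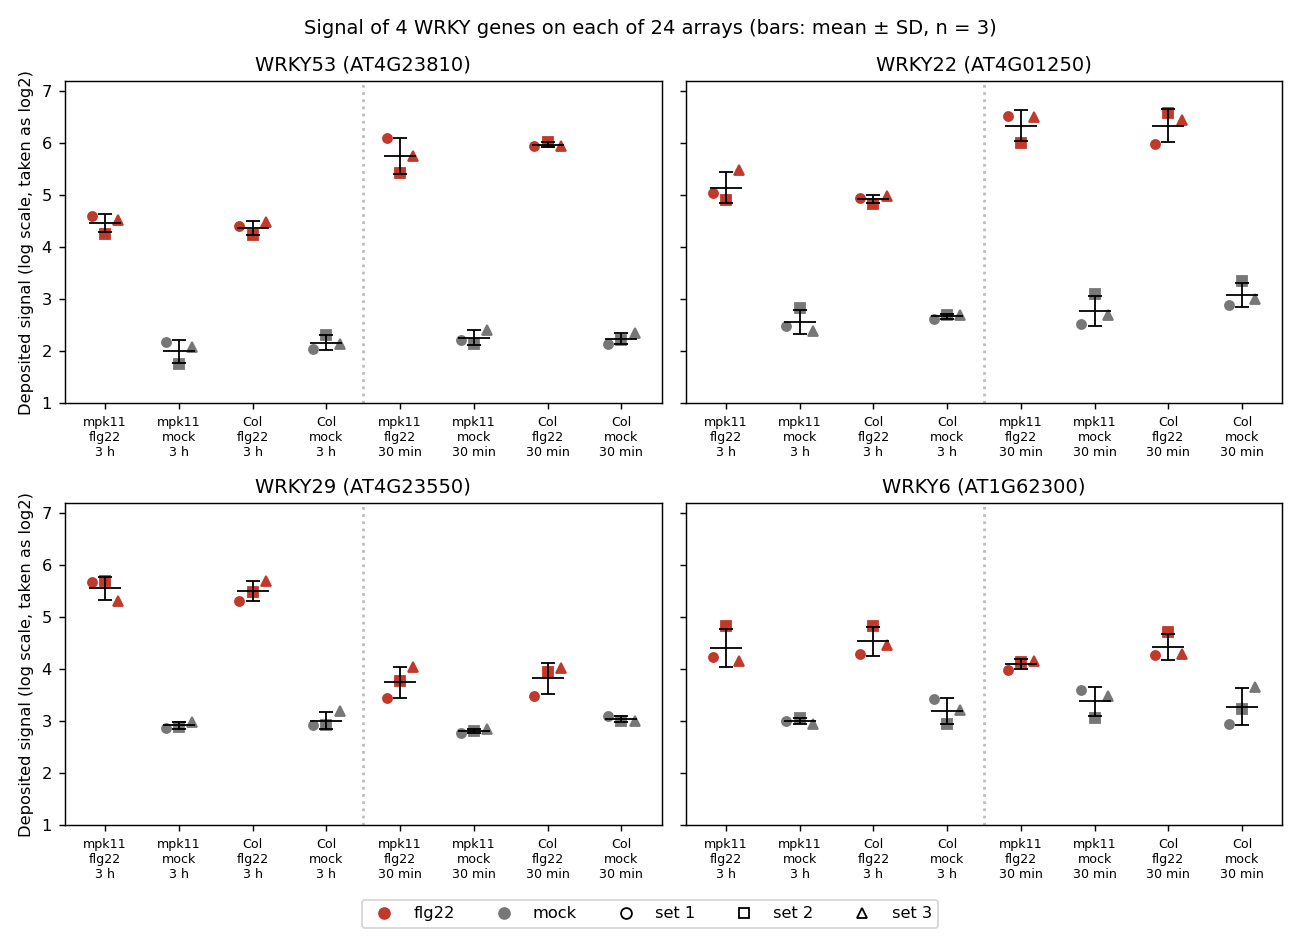
Deposited signal (vertical axis, log scale taken as log2) of WRKY53, WRKY22, WRKY29 and WRKY6 on each array, by genotype, treatment and time, with the set number as the symbol and mean ± SD (n = 3) as bars. In every panel the red flg22 arrays lie above the grey mock arrays, highest at 30 min for WRKY53 and WRKY22 and at 3 h for WRKY29.

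WRKY53 showed the highest flg22 response of the 4 genes in Col at 30 min. In mpk11 at 3 h its signal was 4.60, 4.27 and 4.52 with flg22 in sets 1 to 3, against 2.17, 1.75 and 2.07 in mock. In Col at 3 h it was 4.41, 4.23 and 4.49 with flg22, against 2.04, 2.32 and 2.14 in mock. The lowest flg22 array thus stood well above the highest mock array at this time in both genotypes. How many of all probes were so separated within a genotype and time was not counted. At 30 min the signal in mpk11 was 6.11, 5.42 and 5.76 with flg22, against 2.22, 2.14 and 2.42 in mock. In Col at 30 min it was 5.94, 6.03 and 5.95 with flg22, against 2.15, 2.22 and 2.35 in mock. All flg22 arrays at 3 h lay below all flg22 arrays at 30 min, while the mock arrays of the times overlapped. The flg22 rise in mpk11 was 2.46 at 3 h (SE 0.16; limma adjusted p = 9.05e-12) and 3.51 at 30 min, and in Col it was 2.21 at 3 h (SE 0.16; limma adjusted p = 6.10e-11) and 3.74 at 30 min, the last a 13.3-fold difference.

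WRKY22 ran the same way. In mpk11 at 3 h the signal was 5.05, 4.91 and 5.49 with flg22, against 2.48, 2.83 and 2.40 in mock. In Col at 3 h it was 4.95, 4.84 and 4.99 with flg22, against 2.61, 2.69 and 2.70 in mock. Treated and mock arrays were again separated by a wide gap, though such separation was not counted over all probes. The Col arrays varied little. At 30 min the signal in mpk11 was 6.52, 6.004 and 6.50 with flg22, against 2.53, 3.10 and 2.70 in mock. In Col at 30 min it was 5.98, 6.58 and 6.45 with flg22, against 2.90, 3.35 and 3.01 in mock. Set 1 was the lowest flg22 array in Col and the highest in mpk11, so the 2 genotypes overlapped fully. The rise with flg22 was 2.58 in mpk11 at 3 h (SE 0.19; limma adjusted p = 1.46e-10), 3.57 in mpk11 at 30 min, 2.26 in Col at 3 h (SE 0.19; limma adjusted p = 1.57e-09) and 3.25 in Col at 30 min.

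WRKY29 followed the opposite course. In mpk11 at 3 h the signal was 5.68, 5.70 and 5.31 with flg22, against 2.88, 2.89 and 3.00 in mock. In Col at 3 h it was 5.32, 5.49 and 5.70 with flg22, against 2.92, 2.93 and 3.19 in mock. The flg22 arrays of both genotypes covered nearly the same range, far above mock. At 30 min the signal in mpk11 was 3.45, 3.77 and 4.04 with flg22, against 2.77, 2.81 and 2.86 in mock. In Col at 30 min it was 3.49, 3.95 and 4.03 with flg22, against 3.10, 3.01 and 3.01 in mock. On the deposited scale the early rise was small but separated the arrays in each genotype, with set 1 the lowest flg22 array in both. After median centring the early rise in Col was 0.31 and no longer passed (limma adjusted p = 0.109). The share of all probes so separated within a genotype and time was not counted. The rise with flg22 was 2.64 in mpk11 at 3 h (SE 0.16; limma adjusted p = 4.36e-12), 0.94 in mpk11 at 30 min (SE 0.16; limma adjusted p = 4.98e-05), 2.49 in Col at 3 h and 0.78 in Col at 30 min.

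WRKY6 had the smallest span of the group means, 1.53 between the highest and the lowest of its 8, against 3.98 for WRKY53, 3.77 for WRKY22 and 2.75 for WRKY29. In mpk11 at 3 h the signal was 4.23, 4.83 and 4.17 with flg22, against 3.01, 3.06 and 2.95 in mock. In Col at 3 h it was 4.30, 4.84 and 4.47 with flg22, against 3.43, 2.94 and 3.21 in mock. Set 2 was the highest flg22 array in both genotypes, and the lowest mock array in Col. At 30 min the signal in mpk11 was 3.99, 4.14 and 4.17 with flg22, against 3.60, 3.06 and 3.49 in mock. In Col at 30 min it was 4.27, 4.71 and 4.30 with flg22, against 2.94, 3.24 and 3.66 in mock. On the deposited scale the treatments did not overlap, and the share of all probes without such overlap was not counted. The distance between the closest flg22 and mock arrays was under 1 log2 unit in each genotype and time except in mpk11 at 3 h. The rise with flg22 was 1.41 in mpk11 at 3 h (SE 0.21; limma adjusted p = 4.23e-06), 0.72 in mpk11 at 30 min (SE 0.21; limma adjusted p = 0.0117), 1.34 in Col at 3 h (SE 0.21; limma adjusted p = 8.71e-06) and 1.15 in Col at 30 min.

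**Figure D2:**
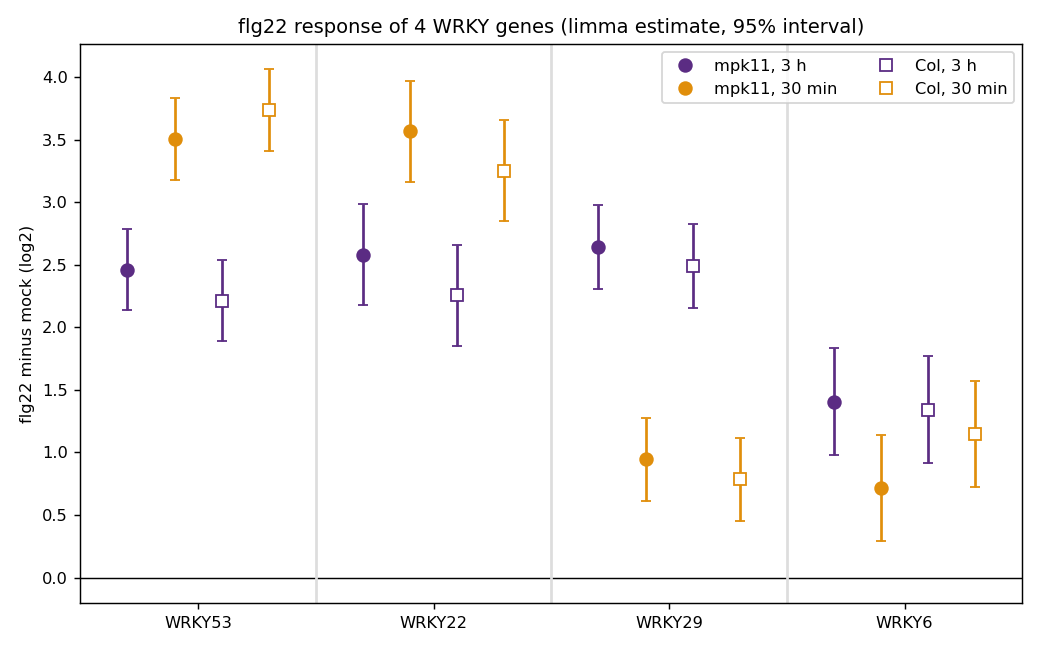
flg22 minus mock (vertical axis, log2) of the 4 WRKY genes in mpk11 and Col at 3 h and 30 min, as the limma estimate with its 95% interval. All 16 intervals lie above 0; WRKY53 and WRKY22 have the higher values at 30 min and WRKY29 at 3 h.

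All 4 genes passed the test in each of the 4 comparisons of flg22 with mock (limma, adjusted p below 0.05 over all probes). Among all probes, 34.4% were called higher in mpk11 at 3 h, 20.5% in mpk11 at 30 min, 31.9% in Col at 3 h and 20.3% in Col at 30 min. The shares called lower were 6.42%, 1.56%, 6.42% and 0.174% in the same order, which makes 40.8%, 22%, 38.4% and 20.5% in either direction. The median rise of the 4 genes was 2.52 in mpk11 at 3 h, where the median of all probes was 0.20, and 2.23 in mpk11 at 30 min, where it was 0.07. In Col the median of the 4 was 2.24 at 3 h and 2.20 at 30 min, beside 0.14 and 0.06 for all probes. By size of the rise among the 576 probes, WRKY53 stood at place 33 at 3 h and 12 at 30 min in mpk11, and at 37 and 8 in Col. WRKY22 stood at place 28 at 3 h and 11 at 30 min in mpk11, and at 35 and 17 in Col. WRKY29 stood at place 27 at 3 h and 89 at 30 min in mpk11, and at 25 and 95 in Col. WRKY6 stood at place 94 at 3 h and 102 at 30 min in mpk11, and at 93 and 77 in Col.

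**Figure D3:**
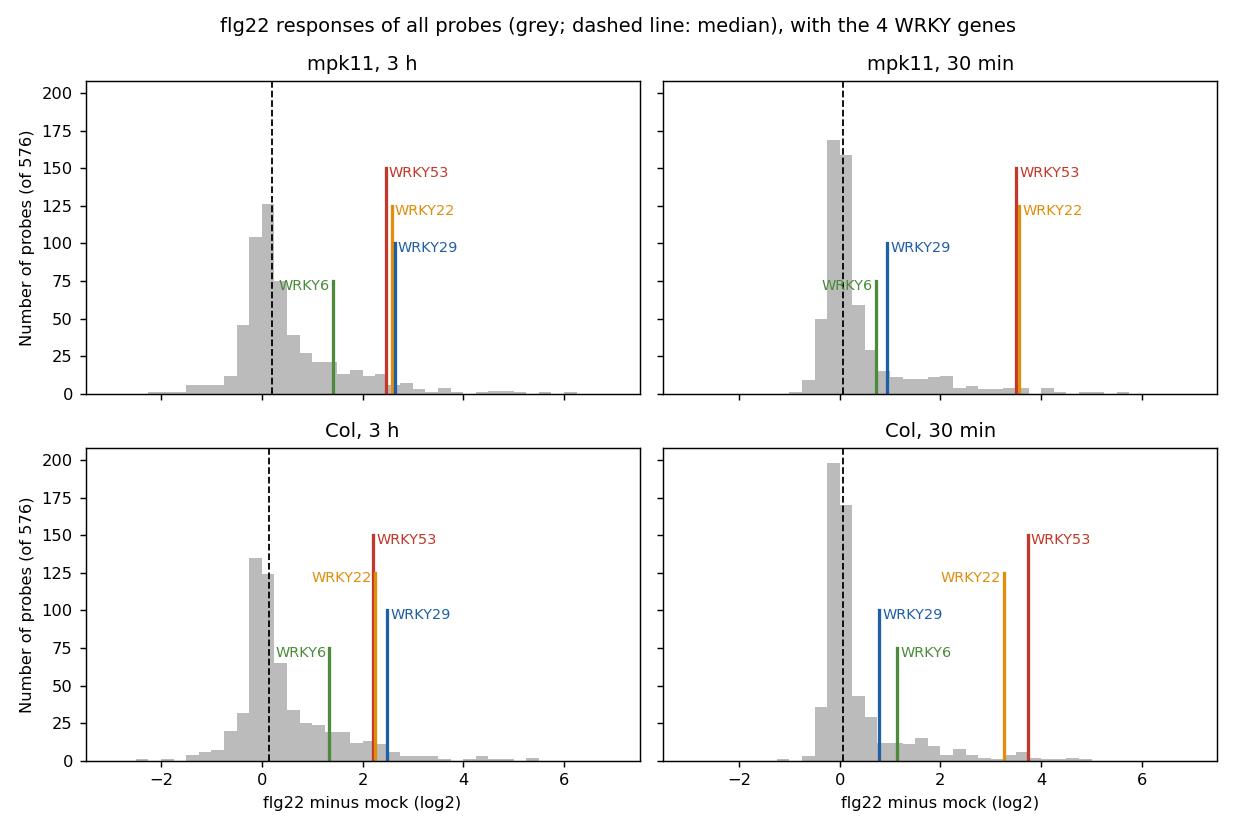
Number of probes (vertical axis) by flg22 minus mock (horizontal axis, log2, bins of 0.25) in mpk11 and Col at 3 h and 30 min, with the median of all probes as a dashed line and the 4 WRKY genes as coloured lines, whose heights carry no value. Most probes lie near 0, and WRKY53 and WRKY22 lie far to the right in all 4 panels.

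The size of every rise depended on how the arrays were scaled, and so did the calls of some smaller rises. When arrays were centred on their medians, every flg22 difference shifted by -0.62 in mpk11 at 3 h, -0.50 in mpk11 at 30 min, -0.53 in Col at 3 h and -0.47 in Col at 30 min. The rise of WRKY6 in mpk11 at 30 min then became 0.22 and no longer passed (limma adjusted p = 0.302), and that of WRKY29 in Col at 30 min became 0.31 (limma adjusted p = 0.109). WRKY29 in mpk11 at 30 min kept its call at 0.45 (limma adjusted p = 0.0293). Among all probes the split then moved from mostly higher to mostly lower: 122 higher and 281 lower in mpk11 at 3 h (198 and 37 as deposited), 87 and 266 in mpk11 at 30 min (118 and 9), 123 and 256 in Col at 3 h (184 and 37), and 87 and 253 in Col at 30 min (117 and 1). WRKY6 kept its call at 0.78 in mpk11 at 3 h, at 0.81 in Col at 3 h and at 0.67 in Col at 30 min. The call of WRKY6 in mpk11 at 30 min was also lost without 1 single array, the mock array of set 2 (a rise of 0.56, limma adjusted p = 0.0797), and, with fewer arrays, without all of set 2 (0.54, limma adjusted p = 0.0684) and without all of set 3 (0.73, limma adjusted p = 0.111). Quantile normalization ended the same 2 calls and reversed no flg22 rise.

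The order of the 8 group means showed the same courses. For WRKY53 the means with flg22 at 30 min were 5.76 ± 0.34 in mpk11 and 5.98 ± 0.05 in Col (SD, n = 3 each), whose arrays overlapped, followed by those at 3 h, 4.46 ± 0.17 in mpk11 and 4.38 ± 0.13 in Col, and by the 4 mock groups between 1.998 and 2.26. For WRKY22 the means with flg22 were 6.34 ± 0.29 in mpk11 and 6.34 ± 0.32 in Col at 30 min, then 5.15 ± 0.30 in mpk11 and 4.93 ± 0.08 in Col at 3 h, with mock between 2.57 and 3.09. In both genes the arrays of neighbouring groups overlapped except at the 2 steps from flg22 at 30 min to flg22 at 3 h and from there to mock. For WRKY29 flg22 at 3 h came first, 5.56 ± 0.22 in mpk11 and 5.50 ± 0.19 in Col, then flg22 at 30 min, 3.75 ± 0.30 in mpk11 and 3.82 ± 0.29 in Col, then mock between 2.81 and 3.04. Its arrays overlapped between neighbours except at these steps and between mpk11 mock at 3 h and mpk11 mock at 30 min. For WRKY6 the top 3 groups overlapped: Col with flg22 at 3 h had 4.54 ± 0.27, Col with flg22 at 30 min 4.43 ± 0.25 and mpk11 with flg22 at 3 h 4.41 ± 0.36. The group of mpk11 with flg22 at 30 min, 4.10 ± 0.09, lay below these and above the mock groups. Its highest array (4.1683) all but touched the lowest of mpk11 with flg22 at 3 h (4.1689).

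The change of the flg22 response between the times was tested for each gene. The response of WRKY53 was smaller at 3 h than at 30 min, by -1.05 in mpk11 (SE 0.22; limma adjusted p = 8.05e-04) and by -1.52 in Col (SE 0.22; limma adjusted p = 1.13e-05), and lower in all 3 sets of each genotype. That of WRKY22 was also smaller at 3 h, by -0.99 in mpk11 (SE 0.27; limma adjusted p = 0.00807) and by -0.997 in Col (SE 0.27; limma adjusted p = 0.00777), again in all sets. No single left-out array ended the WRKY22 calls, but leaving out whole sets did: in mpk11 the difference was -0.77 without set 1 (limma adjusted p = 0.157) and -1.13 without set 3 (limma adjusted p = 0.0572), and in Col it was -0.92 without set 3 (limma adjusted p = 0.131).

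WRKY29 went the other way, with a response larger at 3 h by 1.70 in mpk11 (SE 0.23; limma adjusted p = 3.30e-06) and by 1.71 in Col (SE 0.23; limma adjusted p = 3.66e-06), in all 3 sets of each. The set values were 2.12, 1.85 and 1.12 in mpk11 and 2.01, 1.63 and 1.48 in Col. For WRKY6 the difference was 0.69 in mpk11 (95% interval 0.09 to 1.29; limma adjusted p = 0.0814) and 0.20 in Col (95% interval -0.41 to 0.80; limma adjusted p = 0.743), neither passing. In mpk11 it passed without the mock array of set 2 at 30 min (0.85, limma adjusted p = 0.0328). Thus 1 of the 4 genes had a larger and 2 had a smaller response at 3 h in each genotype. Among all probes 15.6% were larger and 12.2% smaller in mpk11 (27.8% in either direction), and 16.1% were larger and 11.5% smaller in Col (27.6%).

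**Figure D4:**
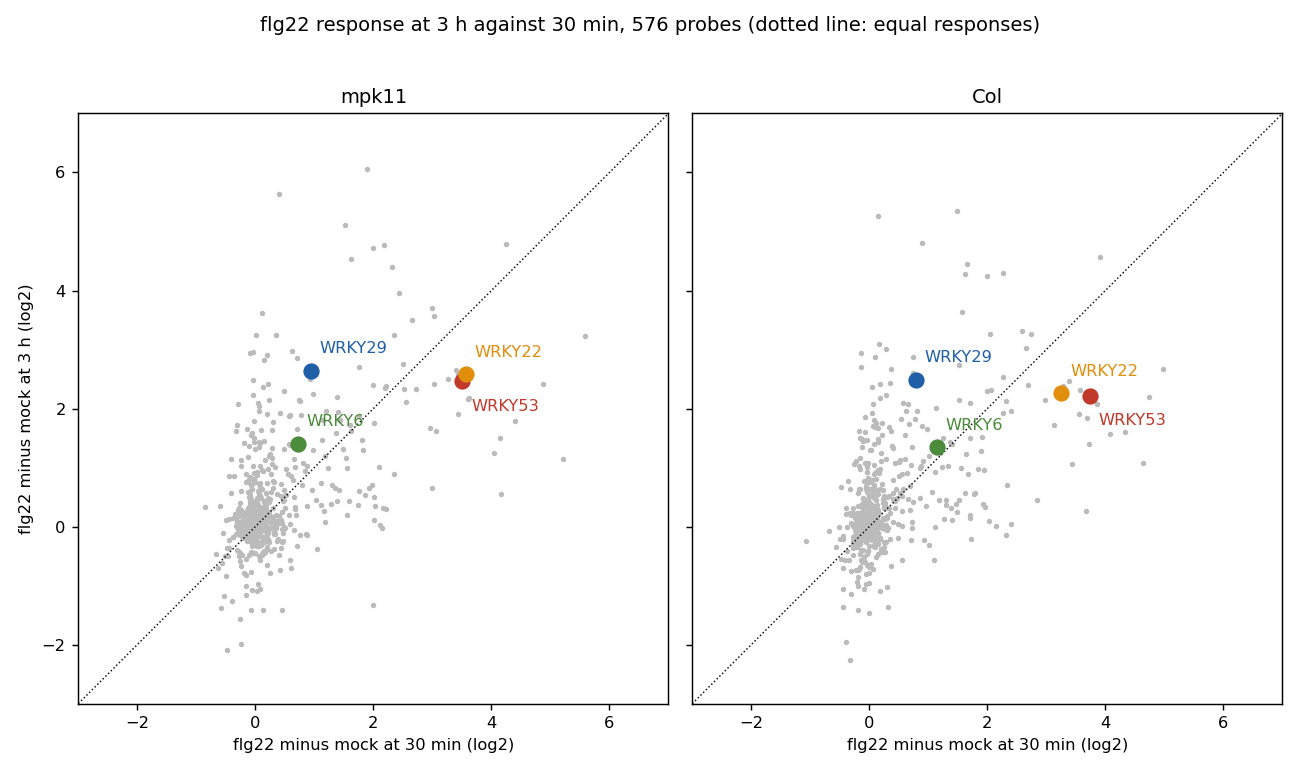
flg22 minus mock at 3 h (vertical axis, log2) against flg22 minus mock at 30 min (horizontal axis, log2) for 576 probes in mpk11 and Col, with the 4 WRKY genes in colour and equal responses on the dotted line. WRKY53 and WRKY22 lie under the line and WRKY29 above it in both genotypes.

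Levels were also compared between the times within each treatment, over both genotypes. With flg22, WRKY53 was lower at 3 h by -1.45 (SE 0.11; limma adjusted p = 1.29e-10) and WRKY22 by -1.30 (SE 0.14; limma adjusted p = 2.36e-08). WRKY29 was higher at 3 h by 1.74 (SE 0.11; limma adjusted p = 8.75e-12), and WRKY6 differed by 0.21 (95% interval -0.09 to 0.51; limma adjusted p = 0.247). This gave 1 gene higher and 2 lower, where 26.2% of all probes were called higher and 26.7% lower, 53% in either direction. In mock 0 of the 4 passed in limma, where 3.99% of all probes were higher and 16.5% lower, 20.5% in either direction. Of the 4, only WRKY22 had an unadjusted p under 0.05 in mock, with -0.31 at 3 h relative to 30 min (95% interval -0.59 to -0.03; limma adjusted p = 0.130). WRKY53 differed in mock by -0.17, WRKY6 by -0.23 and WRKY29 by 0.04. In mock the median over all probes of the difference, 3 h less 30 min, was -0.06 as deposited and 0.09 after median centring of the arrays. Centring made the split of all probes 40 higher and 57 lower, and quantile normalization 47 and 71, against 23 and 95 as deposited. After centring, WRKY22 differed in mock by -0.16 (limma adjusted p = 0.467), WRKY53 by -0.02, WRKY6 by -0.09 and WRKY29 by 0.19.

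The genotypes were compared to ask whether loss of MPK11 alters these transcripts. No WRKY gene passed in limma in any of 7 comparisons of mpk11 with Col, and of all probes 0% passed in each of them. In the model without a set block, which also gave the intervals, 0 of the 28 values had an unadjusted p under 0.05. With the set as a block, unadjusted p-values were not counted. With flg22 at 3 h mpk11 differed from Col by 0.08 for WRKY53 (95% interval -0.24 to 0.41), by 0.22 for WRKY22 (-0.18 to 0.63), by 0.06 for WRKY29 (-0.28 to 0.39) and by -0.13 for WRKY6 (-0.55 to 0.30). With flg22 at 30 min the differences were -0.21 for WRKY53 (-0.54 to 0.11), 0.00 for WRKY22 (-0.40 to 0.41), -0.07 for WRKY29 (-0.40 to 0.26) and -0.33 for WRKY6 (-0.75 to 0.10). WRKY6 was the 1 gene of the 4 whose genotypes did not overlap here, with mpk11 between 3.99 and 4.17 and Col between 4.27 and 4.71, as was so for 10.9% of all probes.

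In mock the differences were of the same size. At 3 h mpk11 differed from Col by -0.17 for WRKY53 (95% interval -0.49 to 0.16), -0.10 for WRKY22 (-0.50 to 0.30), -0.09 for WRKY29 (-0.43 to 0.24) and -0.19 for WRKY6 (-0.62 to 0.23). At 30 min it differed by 0.02 for WRKY53 (-0.31 to 0.34), -0.31 for WRKY22 (-0.71 to 0.09), -0.23 for WRKY29 (-0.56 to 0.10) and 0.10 for WRKY6 (-0.32 to 0.53). WRKY29 was the 1 gene of the 4 without overlap in mock at 30 min, with mpk11 between 2.77 and 2.86 and Col between 3.01 and 3.10, as were 9.9% of all probes. Set by set, the mock difference at 30 min was -0.37, -0.25 and -0.31 for WRKY22 and -0.34, -0.20 and -0.15 for WRKY29, the same sign in all 3 sets. With the set as a block neither passed (limma adjusted p = 0.491 for WRKY22 and 0.505 for WRKY29). All 3 sets also lay below 0 for WRKY29 in mock at 3 h and for WRKY6 with flg22 at both times. They lay above 0 for WRKY53 and WRKY22 with flg22 at 3 h. The share of all probes with the same sign in all 3 sets was not counted. At 3 h no gene of the 4 was without overlap between the genotypes, with 4.69% of all probes without overlap with flg22 and 8.51% in mock. Over the mean of the 4 conditions the differences were -0.07 for WRKY53, -0.05 for WRKY22, -0.08 for WRKY29 and -0.14 for WRKY6, and the widest bounds of their 95% intervals were -0.35 and 0.16. The median of all probes was -0.03.

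The flg22 responses of the genotypes were set against each other by an interaction term. At 3 h the response in mpk11 less that in Col was 0.25 for WRKY53 (95% interval -0.21 to 0.71), 0.32 for WRKY22 (-0.25 to 0.89), 0.15 for WRKY29 (-0.32 to 0.62) and 0.06 for WRKY6 (-0.54 to 0.67). At 30 min it was -0.23 for WRKY53 (-0.69 to 0.23), 0.31 for WRKY22 (-0.26 to 0.88), 0.16 for WRKY29 (-0.31 to 0.63) and -0.43 for WRKY6 (-1.03 to 0.17). The 3 sets were all above 0 for WRKY53 at 3 h (0.05, 0.61 and 0.09) and for WRKY29 at 30 min (0.29, 0.02 and 0.16). In the other 6 cases the sets did not share a direction, as for WRKY6 at 30 min (-0.93, -0.40 and 0.04). The share of all probes whose 3 sets share a direction was not counted. A p-value that misses the threshold does not show that the genotypes act alike: these intervals reach from -1.03 to 0.89.

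**Figure D5:**
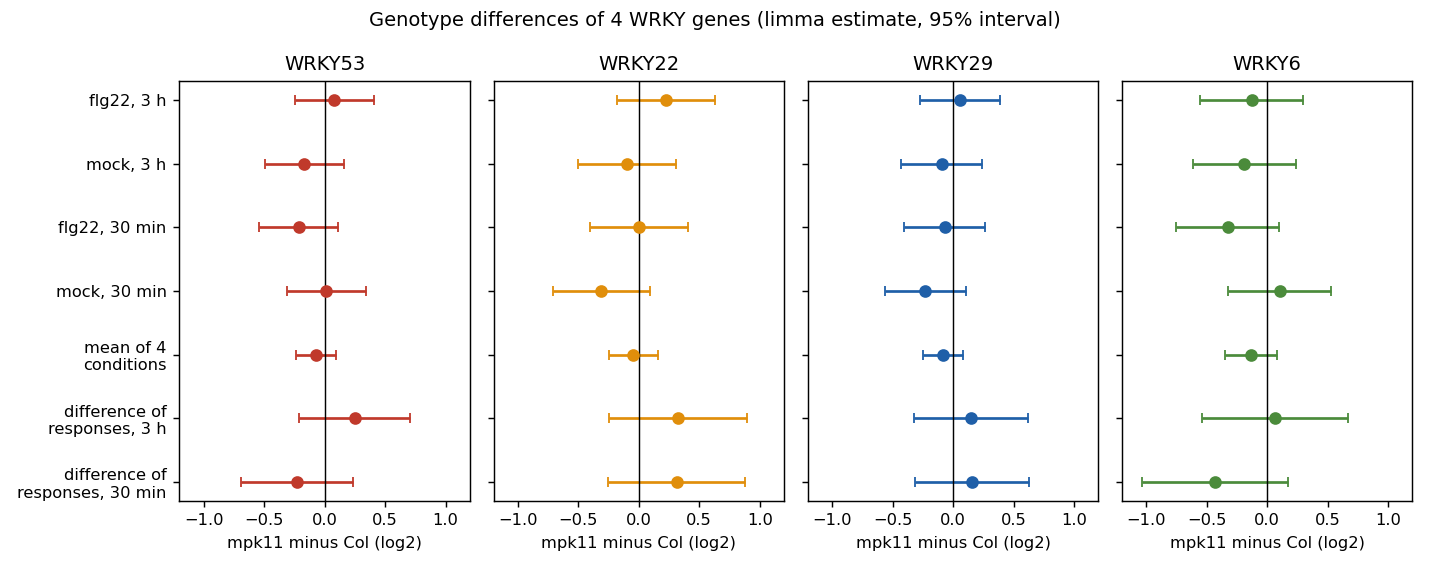
mpk11 minus Col (horizontal axis, log2) for the 4 WRKY genes in each condition, over the mean of the 4 conditions and as the difference of the flg22 responses, each the limma estimate with its 95% interval. All 28 intervals include 0.

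Likeness between expression courses was measured as Pearson's r over the 8 group means, which share the same arrays and contrasts and are given as a description. WRKY53 and WRKY22 had an r of 0.997 with each other, the highest that either had with any of the other 575 probes. WRKY29 had an r of 0.576 with WRKY53 and 0.597 with WRKY22. WRKY6 lay between, with 0.884 for WRKY53, 0.887 for WRKY22 and 0.856 for WRKY29. An r over 0.9 was reached by 49 of the other probes for WRKY53, 47 for WRKY22, 90 for WRKY29 and 53 for WRKY6. Among named probes the next most like WRKY53 was STZ (AT1G27730), a zinc-finger transcription repressor, with 0.991, and then AT1G05340 with 0.983. Above these stood 10 and 13 unnamed probes. The same genes followed for WRKY22, with 0.989 for AT1G05340 and 0.985 for STZ, below 10 and 12 unnamed probes. STZ rose by 2.42 in mpk11 at 3 h and 4.87 in mpk11 at 30 min, and so shared the early high with the pair. AT1G05340 rose by 0.99 at 3 h and 1.24 at 30 min in mpk11, and by 0.93 and 1.11 in Col. Its rises thus differed less between the times than those of STZ, despite its high r.

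Among named probes, the courses most like WRKY29 belonged to AT4G39830 (0.997), the peroxidase gene AT5G64120 (0.997) and the chitinase gene AT4G01700 (0.996), above which stood 1 unnamed probe. The peroxidase and chitinase genes rose in mpk11 by 4.72 and 4.54 at 3 h and by 1.99 and 1.62 at 30 min. The named probes most like WRKY6 were AT2G36950 (0.981), which codes for a protein with a heavy-metal-associated domain, AT2G36690 (0.974), a gene of the 2-oxoglutarate-dependent dioxygenase family, and the kinase gene AT2G23450 (0.968), with 1 unnamed probe above the second and 7 above the last. Over the 24 single arrays AT2G23450 had an r of 0.675, while the other named genes here kept values of 0.909 or more.

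Other genes of the flagellin response were counted on the deposited scale, from lists chosen with earlier results of these data known. The counts were not repeated after rescaling. Of 6 response markers 1 was measured, STZ. All 5 calcium sensor genes were measured: 4 rose in mpk11 at 3 h (34.4% of all probes did), 5 in mpk11 at 30 min (20.5%), 4 in Col at 3 h (31.9%) and 5 in Col at 30 min (20.3%), with medians of 1.15, 2.02, 1.08 and 1.95. Among them AT2G41090, a calmodulin-like gene, rose by 0.79 in mpk11 at 3 h and 0.65 in mpk11 at 30 min, and AT2G41410 rose by 1.62 and 1.63. In Col AT2G41090 rose by 0.51 at 3 h and 0.56 at 30 min. Median centring shifted every flg22 difference by -0.62 at 3 h and -0.50 at 30 min in mpk11. In Col the shifts were -0.53 and -0.47, so the calls of AT2G41090 depend on the scaling. Of 11 genes of defence outputs 7 were measured, of which, beside the same shares of all probes, 6 rose in mpk11 at 3 h, 5 in mpk11 at 30 min, 6 in Col at 3 h and 5 in Col at 30 min, with medians of 4.72, 1.62, 4.30 and 1.48. The FAD-linked oxidoreductase gene AT1G26380 rose by 4.77 in mpk11 at 3 h and 2.18 in mpk11 at 30 min. AT2G04400, indole-3-glycerol phosphate synthase of tryptophan synthesis, rose by 2.96 in mpk11 at 3 h and differed by -0.04 in mpk11 at 30 min (limma adjusted p = 0.945).

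Between the times, the flg22 response was smaller at 3 h for 2 of the 5 calcium sensors and larger for 0 in each genotype, and the other 3 did not pass. Of all probes 12.2% were smaller in mpk11 and 11.5% in Col. The response was larger at 3 h for 6 of the 7 defence output genes and smaller for 0 in each genotype, where 15.6% of all probes were larger in mpk11 and 16.1% in Col. The medians of these differences were -0.40 in mpk11 and -0.45 in Col for the calcium sensors, and 2.92 in mpk11 and 2.78 in Col for the defence outputs, beside 0.10 in mpk11 and 0.05 in Col for all probes.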

How the data were processed

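RNA was labelled with 1 dye (Alexa555) and hybridised to spotted arrays, and spots of poor quality were found with a Cy5-labelled oligonucleotide, per the labels. The deposited table of the authors holds 576 probes on 24 arrays with 0 missing values, read as log2 signals since they run from 0.450 to 11.4. Each array holds only 311 to 405 distinct values, so some probes share a value exactly. WRKY22 and WRKY6 do so at 4.84 on the Col array of set 2 with flg22 at 3 h. The log base, the background correction and the normalization are not stated in the sources used here. Probes were named through the platform annotation and, by gene identifier, RefSeq names (TAIR10.1); 181 probes had 1 gene, 0 several, 395 are unnamed here. Coordinates are not printed because no build is given for the probes.

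One limma 3.58.1 model (R 4.3.3) of 8 group means over all arrays gave every comparison. Adjustment was by Benjamini-Hochberg over all probes, with a threshold of 0.05. A run of the model on simulated data used independent noise on each array. Arrays of the same set were correlated here, so that run does not test the model without a set block. No probe was filtered. Genes named were the 4 WRKY genes, for each the 3 named probes with the highest r over group means, and from each list up to 2 genes with the lowest identifiers. The members, fixed by gene identifier, and the lists were chosen with earlier results of these data known. Set numbers were checked for pairing: in 7 of 8 comparisons of 2 groups, every same-numbered pair of arrays had deviations from the group means correlated over 0.1 (the exception was mpk11 against Col with flg22 at 3 h, lowest -0.01). The set number entered as a replicate block among the alternatives, which were median centring, quantile normalization, leaving out dim probes, another prior, only the compared arrays, and leaving out each array or set.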

Additional observations from a re-analysis of the deposited data

Results flagged for a closer look

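The flg22 response differed between 3 h and 30 min, by the interaction test in limma, for 3 of the 4 WRKY genes in each genotype. The response at 3 h less that at 30 min was -1.05 in mpk11 and -1.52 in Col for WRKY53, and -0.99 in mpk11 and -0.997 in Col for WRKY22. It was 1.70 in mpk11 and 1.71 in Col for WRKY29. Median centring left all 6 past the threshold, with -1.17 and -1.58 for WRKY53, -1.11 and -1.05 for WRKY22, and 1.57 and 1.65 for WRKY29, each in mpk11 and then in Col. Groups of 3 arrays were too small for a check of single arrays far from the others.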

How the results depend on the processing

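Treating the sets as a replicate block, fixed or random, changed no call of the 4 genes; WRKY6 in mpk11 at 30 min kept its rise of 0.72. Leaving out dim probes (432 kept, all 4 genes among them), a trended and robust prior and only the compared arrays changed none either. Of the 16 flg22 rises, 2 lost their call under scaling: WRKY6 in mpk11 at 30 min was 0.22 after median centring and 0.21 after quantile normalization (limma adjusted p = 0.302 and 0.362), and WRKY29 in Col at 30 min was 0.31 and 0.35 (limma adjusted p = 0.109 and 0.0664). The cause was not tested. Of differences that passed no threshold, WRKY22 for mpk11 less Col became -0.12 with flg22 at 30 min and 0.039 in mock at 3 h after quantile normalization, and the difference of responses of WRKY6 at 3 h became -0.029 after median centring.

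Leaving out each array or set gave the following ranges where a call or a sign changed. The WRKY6 rise in mpk11 at 30 min lay between 0.54 and 0.88. The response at 3 h less that at 30 min lay between -1.16 and -0.77 in mpk11 and between -1.18 and -0.87 in Col for WRKY22, and between 0.48 and 0.85 in mpk11 and between -0.013 and 0.52 in Col for WRKY6. For WRKY29 in mock, 3 h less 30 min lay between -0.019 and 0.080. The other changes of sign were in mpk11 less Col, which passed no threshold in any setting. With flg22 at 3 h this lay between -0.092 and 0.28 for WRKY29 and between -0.34 and 0.024 for WRKY6. With flg22 at 30 min it lay between -0.27 and 0.29 for WRKY22 and between -0.24 and 0.083 for WRKY29. In mock at 3 h it lay between -0.32 and 0.036 for WRKY53 and between -0.23 and 0.0042 for WRKY22. In mock at 30 min it lay between -0.065 and 0.075 for WRKY53 and between -0.17 and 0.29 for WRKY6. Over the mean of the conditions it lay between -0.18 and 0.048 for WRKY53 and between -0.090 and 0.0093 for WRKY22. For the difference of responses it lay between -0.14 and 0.22 at 3 h for WRKY6 and between -0.0066 and 0.31 at 30 min for WRKY29.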
